A study of Homo sapiens with 9 samples.

Results

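Orthotopic tumours of Hep3B, a human liver cancer cell line, were raised in immunodeficient Nod/Scid mouse livers and differed widely in the level of GNMT, and the arrays at both ends of that range were compared across all other named genes. The 9 arrays were ranked by the intensity of the brightest, and only, GNMT probe in the deposited table with detection p-values. The 3 arrays selected as highest were dilution buffer 3, empty liposomes 1 and empty liposomes 2, and the 3 selected as lowest were MRX34 2, dilution buffer 1 and MRX34 3, out of 9 arrays in all. MRX34 1, empty liposomes 3 and dilution buffer 2 lay between them. The study gave the mice a single intravenous injection of MRX34, a liposome carrying a mimic of the microRNA miR-34a, or of 1 of 2 controls, empty liposomes or dilution buffer, and took the tumours a day later, with 3 arrays per treatment. The GNMT sets therefore mix treatments: no MRX34 array is in the high set and no empty liposome array is in the low set, so GNMT level and treatment cannot be fully told apart.

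All groups share the Hep3B line, the mouse liver as the site of growth and the Nod/Scid host, and RNA came from whole tumours. The share of mouse RNA on each array was not analysed here, and fewer cells of a type and less RNA per cell cannot be told apart in such samples. Whether each array stands for its own mouse is not given in the labels. Because the sets were selected on a measured value, their differences are given as a description with no test.

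GNMT, glycine N-methyltransferase, transfers a methyl group from S-adenosylmethionine to glycine, and is abundant in normal hepatocytes, where it disposes of excess methyl groups. It belongs to the one-carbon and methionine cycle, which joins folate to the supply of methyl groups, and it is often lost in hepatocellular carcinoma. OTC, ornithine transcarbamylase, is a mitochondrial enzyme of the urea cycle, the liver's route for disposal of ammonia.

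GNMT had a deposited intensity of 36726 on dilution buffer 3, 24989 on empty liposomes 1 and 5578 on empty liposomes 2. It had 3660 on MRX34 1, 3055 on empty liposomes 3 and 1706 on dilution buffer 2, the 3 arrays in the middle. It had 1257 on MRX34 2, 344 on dilution buffer 1 and 263 on MRX34 3. The values just inside the high set and just outside it were 5578 and 3660, and those just inside the low set and just outside it were 1257 and 1706. The order was a gradient with no clear gap at either boundary. Counted from the highest, dilution buffer held ranks 1, 6 and 8, empty liposomes 2, 3 and 5, and MRX34 4, 7 and 9. Empty liposomes thus lay toward the top and MRX34 toward the bottom. After background correction and normalization the log2 intensity averaged 14.06 ± 1.45 in the high set and 8.63 ± 1.39 in the low set (SD, n = 3 each), and the 9 arrays spanned 191-fold. The plot of GNMT, OTC and array brightness shows the order and the treatments.

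**Figure D1:**
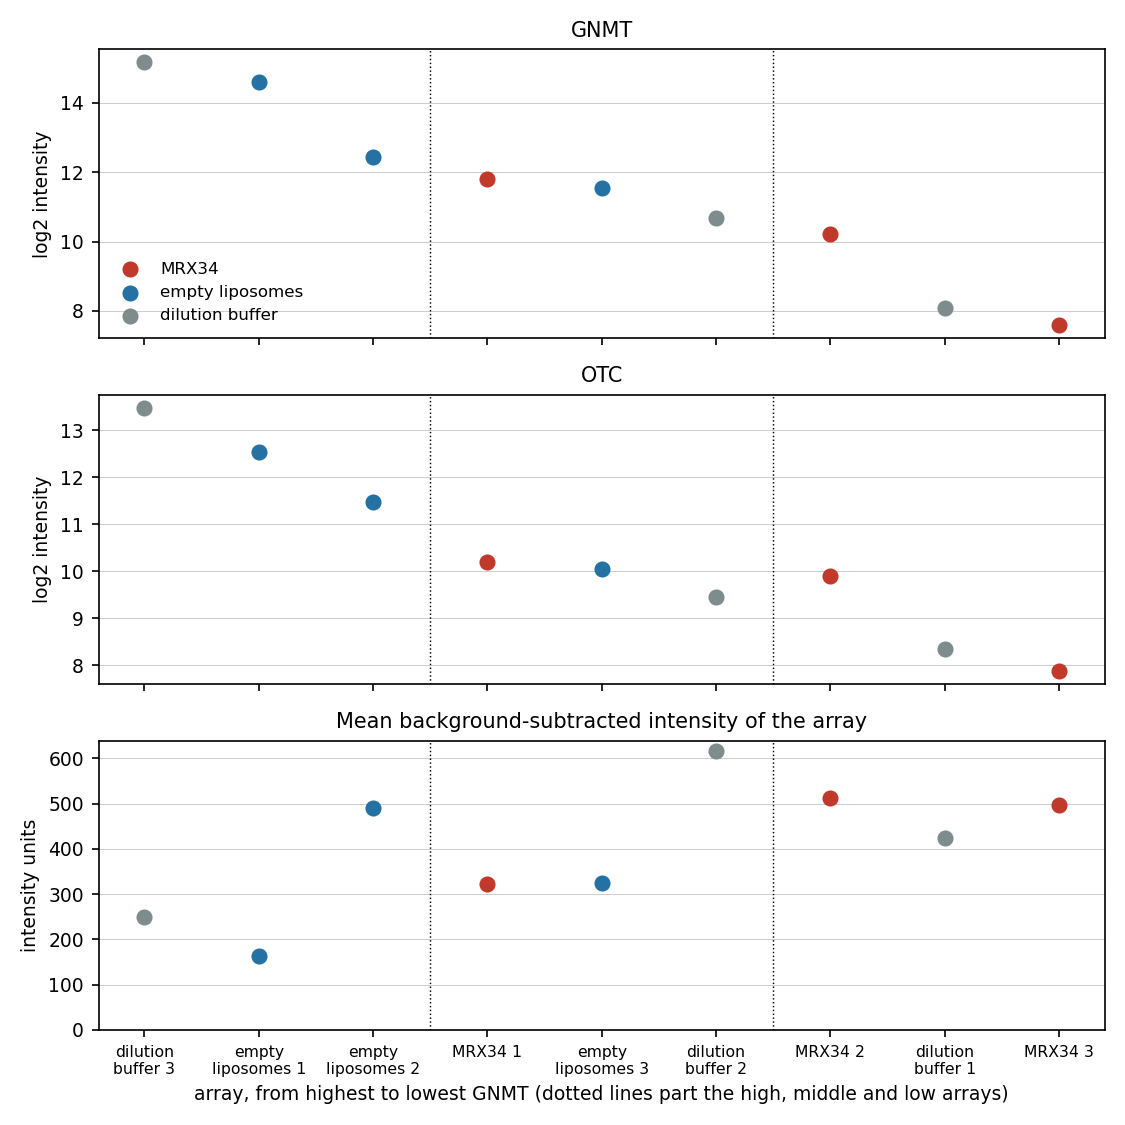
GNMT level, OTC level (log2 intensity) and mean background-subtracted intensity (intensity units) of each of the 9 arrays, ordered from highest to lowest GNMT, coloured by treatment, with dotted lines parting the high, middle and low arrays. Dilution buffer 3 and empty liposomes 1, the highest in GNMT, were the dimmest arrays, at 249.3 and 163.2.

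The sets also differed in array brightness. Mean background-subtracted intensity was 249.3, 163.2 and 491.0 on the high arrays in order of GNMT, against 511.9, 425.1 and 496.0 on the low arrays. Named probes above background numbered 16508, 13690 and 18697 on the high arrays, against 18728, 19142 and 18775 on the low arrays. The tumour markers AFP and GPC3, and also albumin (ALB), were above background on every array. AFP, the fetal counterpart of albumin, averaged 15.25 ± 0.07 in the high set and 15.30 ± 0.08 in the low set (log2 intensity), and ALB differed by −0.07. GPC3, a cell-surface proteoglycan of liver cancer, differed by −0.17. AFP and ALB lay near the top of the intensity scale, which normalization sets alike on every array, so their small differences do not show stable levels.

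A gene was called higher in the high set when its mean log2 intensity was at least 1 unit above that of the low set and all 3 high arrays lay above all 3 low arrays, and called lower in the mirror case. Of 15386 genes apart from GNMT, 282 were called higher (1.83%) and 254 lower (1.65%), with a median difference of all genes of −0.08. The higher genes differed by more than the lower ones: 67 of the 282 passed 2 log2 units, against 8 of the 254. On the series table with no scaling between arrays the counts were 87 higher and 2507 lower, and scaled to the median they were 278 higher and 720 lower, with all-gene median shifts of −0.88 and −0.28. Of these higher calls, 206 of the 282 remained called higher on the scaled series values. Leaving out 1 array put 2 arrays against 3, which made the no-overlap part of the call easier to meet. A rise in the counts therefore cannot be laid to the array left out. Without empty liposomes 2 the counts were 611 and 956. The lower count was 163 without empty liposomes 1, 387 without dilution buffer 3 and 484 without dilution buffer 1. Without both dilution buffer 3 and empty liposomes 1, the highest in GNMT and the dimmest, empty liposomes 2 was the only high array. The all-gene median was then −0.0014.

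**Figure D2:**
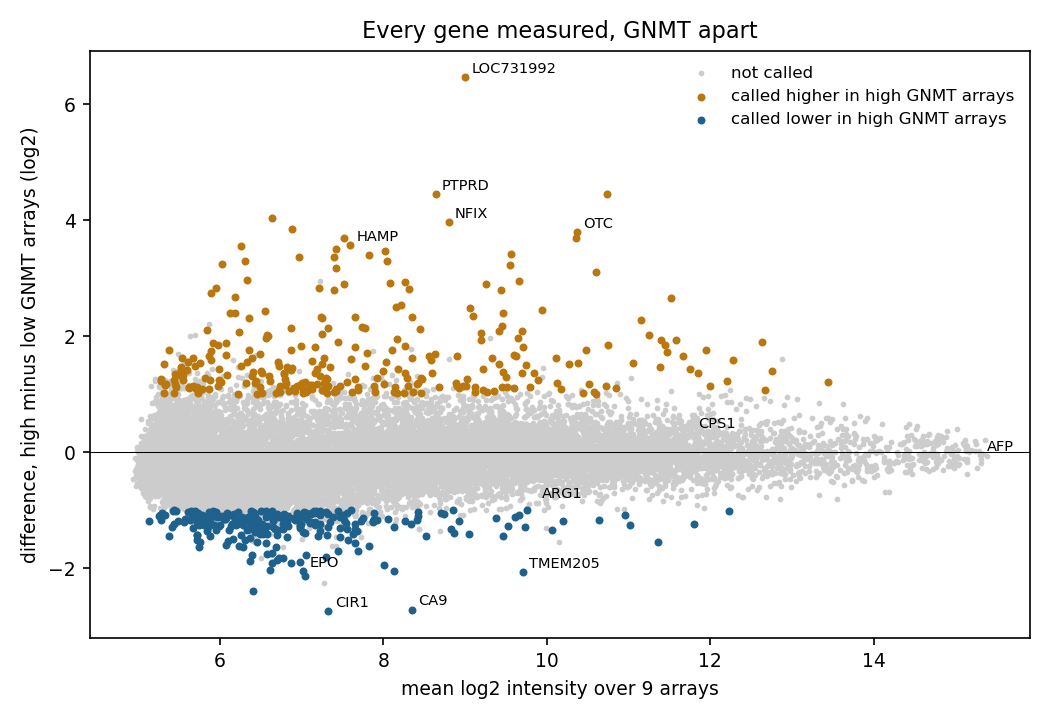
Difference between the high and low GNMT arrays (log2) against mean log2 intensity over 9 arrays for every gene measured, GNMT apart, with called genes coloured. Called higher genes reach farther from 0 than called lower genes, and most called lower genes are dim.

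OTC followed GNMT closely. Its log2 intensity was 13.47, 12.54 and 11.48 on the high arrays, 10.19, 10.06 and 9.45 on the middle arrays, and 9.89, 8.33 and 7.87 on the low arrays. The high and low sets did not overlap, and the difference was 3.80 (13.9-fold). Within dilution buffer alone, dilution buffer 3 exceeded dilution buffer 1 by 5.14. Ranked on OTC instead of GNMT, the high set was the same and dilution buffer 2 replaced MRX34 2 in the low set. Among the genes most like GNMT by Pearson correlation over the 9 log2 levels were PTPRD (r = 0.99), OTC (0.98), PTPRB (0.98), RAPGEFL1 (0.96), PGK2 (0.96), NFIX (0.96) and ATP6V1H (0.96), given as a description with n = 9. Another probe of ATP6V1H, above background on 8 arrays, differed by −0.71 where the brightest differed by 0.97. Those most opposite were SPAG4 (−0.96), RPS12 (−0.95), COX7A2L (−0.93) and SNAPC5 (−0.92). Array brightness also varied over the same 9 arrays.

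The largest higher differences included liver enzymes, a transcription factor and receptor phosphatases. PTPRD, a receptor-type tyrosine phosphatase, had 11.99, 11.20 and 9.96 on the high arrays, 8.55, 8.48 and 7.81 on the middle arrays, and 8.04, 6.33 and 5.40 on the low arrays, a difference of 4.46. The high and low sets did not overlap for PTPRD. NFIX, a nuclear factor I transcription factor, had 12.12, 10.75 and 10.02 on the high arrays, against 7.86, 6.58 and 6.57 on the low arrays, a difference of 3.96. CYP4F2, a fatty acid and vitamin E omega-hydroxylase, differed by 3.85 and HAMP, the iron hormone hepcidin, by 3.57. PGK2 differed by 3.50, HPR by 3.42, FAAH by 3.40, CYP2D6, a drug-metabolizing cytochrome, by 3.37, DCN, the matrix proteoglycan decorin, by 3.36 and PTPRB by 3.29. MRAP, NECTIN4 and CAMTA2 were not well above background on any low array and were at least 13.1-fold, 8.83-fold and 8.18-fold higher on the high arrays. LOC731992, a placeholder name outside the naming rule and chosen after its values were seen, had the largest difference of all, 6.46.

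The higher calls leaned on the top of the ranking. The array farthest from the low set was dilution buffer 3 in 172 of the 282, empty liposomes 1 in 106 and empty liposomes 2 in 4. The middle arrays averaged between the set means in 265 of the 282. Within the empty liposome arrays alone, the mean of arrays 1 and 2 exceeded array 3 in 265 of the 282, where 44.05% of all genes were positive. Within MRX34, array 1 exceeded the mean of arrays 2 and 3 in 229, where 46.18% of all genes were positive. These comparisons share arrays with the ranking itself. The 282 were called on the values of empty liposomes 1 and 2 and MRX34 2 and 3, so the within-treatment counts were partly set by the call. The shares of all genes, not selected in that way, are therefore no fair yardstick. Above background on all 9 arrays were 208 of the 282.

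Other probes of the same genes gave smaller differences. Of the 282, 65 genes had 79 other probes past the filter, of which 7 were called higher and 48 lay in the same direction, with a median of 0.11 against 1.36 for the brightest probes of these genes, which the rule had used. CYP2D6 had 3.37 on the brightest probe and 0.03 on another. CYP4F2 had 3.85 and −0.19, HPR 3.42 and −0.44, DCN 3.36 and 0.70, and PTPRD 4.46 and 1.90. These are described as probe values, and the genes concerned are to be read as uncertain.

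**Figure D3:**
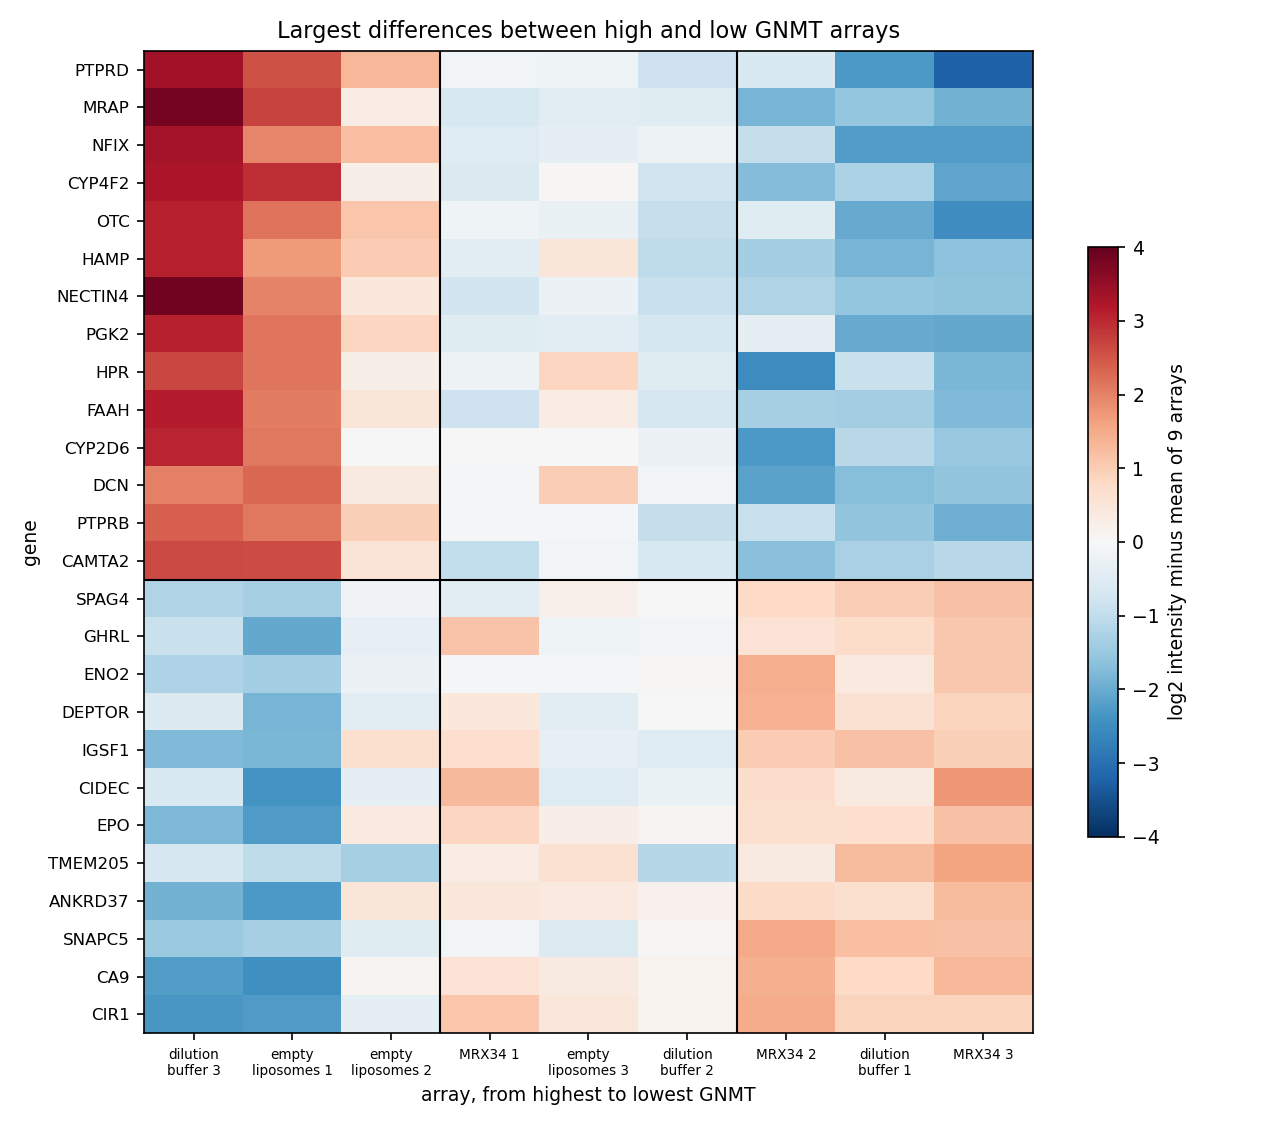
Log2 intensity of the genes with the largest differences, minus each gene's mean over the 9 arrays (colour), on arrays ordered from highest to lowest GNMT; lines part the high, middle and low arrays and the higher and lower genes. The high columns on the left are red in the upper block and blue in the lower block, with empty liposomes 2 the palest of the high arrays.

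The genes called lower were mostly dim. Of 254, 53 were above background on all 9 arrays, while 201 were not above background on empty liposomes 1 and 92 on dilution buffer 3, the dimmest arrays. The farthest high array was empty liposomes 1 in 197 of the 254. The middle mean lay between the set means in 251. Of 62 other probes of 57 of these genes, 17 were called lower and 56 lay in the same direction, with a median of −0.69 against −1.24 for the brightest probes. The brightness of the arrays moved with these calls. In a fit over 9 arrays that also held array brightness, chosen after seeing the data, 104 genes were called lower, and 69 of the 254 were among them.

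CIR1, a corepressor that binds CBF1, had 5.01, 5.07 and 6.93 on the high arrays, against 8.80, 8.21 and 8.23 on the low arrays, a difference of −2.74. CA9, carbonic anhydrase IX, a classic target of hypoxia-inducible factor, had 6.11, 5.89 and 8.44 on the high arrays, against 9.76, 9.16 and 9.67 on the low arrays, a difference of −2.72. The sets did not overlap for either, and empty liposomes 2 lay nearest the low set in both. SNAPC5, a subunit of the complex for small nuclear RNA genes, differed by −2.40, ANKRD37 by −2.13, TMEM205 by −2.07, EPO, erythropoietin, by −2.06, CIDEC, a lipid droplet protein, by −2.05, IGSF1 by −2.04, DEPTOR, an inhibitor of mTOR, by −1.92, ENO2 by −1.91, GHRL, ghrelin, by −1.90 and SPAG4 by −1.88. TMEM205 had 9.04, 8.70 and 8.39 on the high arrays, against 10.08, 10.97 and 11.28 on the low arrays, and was above background on all 6. Among the 12, CIR1, SNAPC5, ANKRD37, EPO, IGSF1, ENO2 and SPAG4 were above background on 1 of 3 high arrays.

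The one-carbon and methionine cycle, to which GNMT belongs, held few called members. Of 27 other measured members, 9 differences were positive and 18 negative, where 42.82% of all genes were positive. The median was −0.04 and 2 were called higher, MTHFD1 and ALDH1L1 (7.41%, against 1.83% of all genes). MTHFD1, a trifunctional enzyme of folate interconversion, had 12.39, 11.77 and 10.07 on the high arrays, against 8.66, 8.72 and 7.98 on the low arrays, a difference of 2.96. ALDH1L1, which oxidizes formyl-tetrahydrofolate, differed by 1.62 and was above background on 2 of 3 high arrays and 1 of 3 low arrays. MAT1A, the liver form of methionine adenosyltransferase, differed by −0.68, AHCY by 0.53, CBS by 0.29 and BHMT, the betaine methyltransferase, by −0.88. AHCY, which hydrolyses S-adenosylhomocysteine, had 10.15 on MRX34 2 and 11.71 to 12.13 on the other 8 arrays. Of 10 urea cycle and ammonia genes, 6 differences were positive, the median was 0.03 and OTC alone was called. CPS1, which makes carbamoyl phosphate, differed by 0.34 and ARG1, which releases urea, by −0.87.

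Genes of the heat shock response were the list with the highest median. Of 19 measured, 18 had a positive difference, where 42.82% of all genes did. The median was 0.58, and 5 (26.32%, against 1.83% of all genes) were called higher: CRYAB (1.83), DNAJB1 (1.36), HSPH1 (1.11), DNAJA1 (1.08) and HSPA1B (1.01), of which DNAJA1 and HSPA1B were chosen after their values were seen. DNAJB1, a co-chaperone of HSP70, had 10.09, 10.61 and 10.18 on the high arrays, against 8.02, 9.64 and 9.15 on the low arrays. Yet it had 8.85 on MRX34 1 and 10.46 and 10.25 on the middle control arrays. The list mean relative to its 9-array mean was 0.28, 0.41 and 0.30 on the high arrays, against −0.34, −0.20 and −0.36 on the low arrays, and −0.39 on MRX34 1. All 3 MRX34 arrays lay lowest in the list mean, whatever their GNMT rank. With treatment in the fit the list median was 0.18. CRYAB, a small heat shock protein, ran differently, with r = 0.91 with GNMT. On the series table with no scaling the list median was −0.32, below 0, against an all-gene shift of −0.88.

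**Figure D4:**
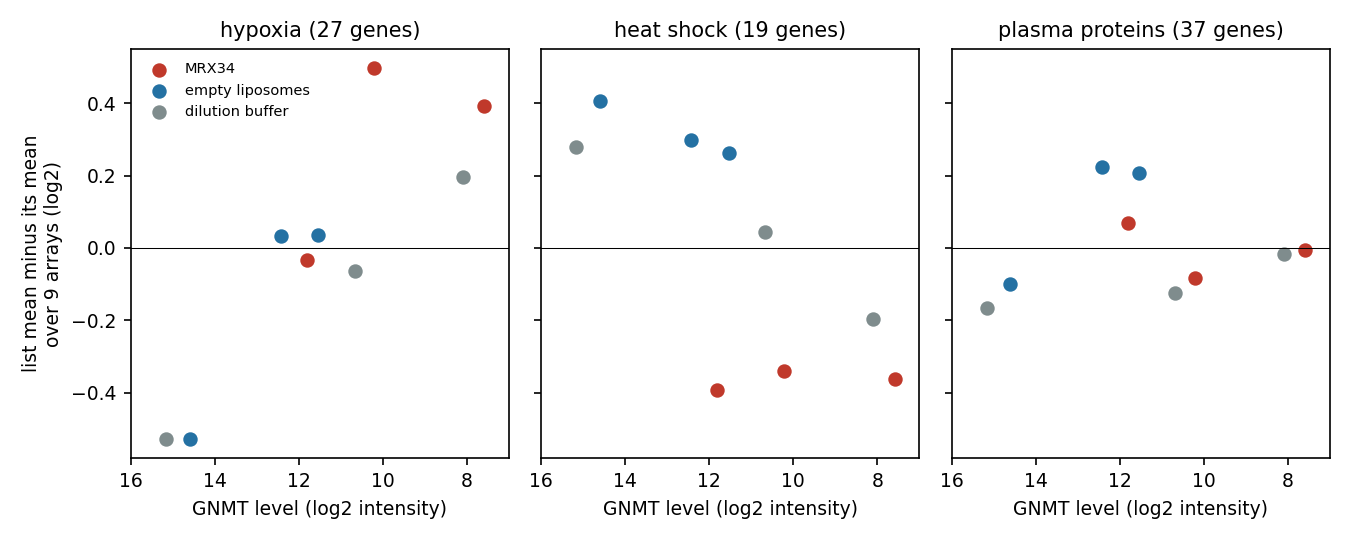
Mean of the hypoxia, heat shock and plasma protein lists on each array, relative to its mean over 9 arrays (log2), against GNMT log2 intensity, drawn from high to low, coloured by treatment. The hypoxia mean is lowest at −0.53 on the 2 arrays highest in GNMT, and the heat shock mean is lowest on the 3 MRX34 arrays.

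Genes of the hypoxia response were the list with the lowest median. Of 27 measured, 3 had a positive difference and 24 a negative one, where 42.82% of all genes were positive. The median was −0.65, and 6 (22.22%, against 1.65% of all genes) were called lower: CA9, ANKRD37, PFKFB4 (−1.39), ADM (−1.35), BNIP3L (−1.19) and P4HA1 (−1.05); the last 3 fall outside the naming rule and were chosen after their values were seen. EPO and ENO2, also called lower, lie outside this list and were named for the size of their differences. Each was above background on 1 of 3 high arrays, and neither adds to the list result. The list mean was −0.53, −0.53 and 0.03 on the high arrays, against 0.50, 0.19 and 0.39 on the low arrays, so empty liposomes 2 lay with the middle arrays, which ranged around 0. The low brightness of dilution buffer 3 and empty liposomes 1 moved with these values. The list median was −0.43 with array brightness in the fit. It was −0.26 without those 2 arrays, which left empty liposomes 2 as the only high array. Both settings were chosen after seeing the data. P4HA2 (0.70, and −0.64 on another probe), EGLN1 (0.28) and TPI1 (0.11) were the 3 with a positive difference.

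Promoter sequence is shown for CA9, ANKRD37 and PFKFB4, of the hypoxia list in which 24 of 27 differences were negative. Common regulation of these genes was not tested. Coordinates are RefSeq GRCh38.p14, from 250 bases before the start to 50 after it on the gene's strand. Capitals mark the core of the hypoxia response element, ACGTG on the printed strand, or CACGT where it lies on the opposite strand. CA9 is at chr9:35673678-35673977 on the plus strand with 1 match, ANKRD37 at chr4:185396591-185396890 on the plus strand with 3, 2 of which overlap on opposite strands, and PFKFB4 at chr3:48556754-48557053 on the minus strand with none.

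CA9: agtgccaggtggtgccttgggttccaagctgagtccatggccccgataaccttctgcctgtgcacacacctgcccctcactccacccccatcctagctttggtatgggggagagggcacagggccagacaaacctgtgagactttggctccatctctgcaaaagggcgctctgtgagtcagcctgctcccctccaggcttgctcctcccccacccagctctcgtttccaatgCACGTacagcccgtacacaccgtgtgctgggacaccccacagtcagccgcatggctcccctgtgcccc
ANKRD37: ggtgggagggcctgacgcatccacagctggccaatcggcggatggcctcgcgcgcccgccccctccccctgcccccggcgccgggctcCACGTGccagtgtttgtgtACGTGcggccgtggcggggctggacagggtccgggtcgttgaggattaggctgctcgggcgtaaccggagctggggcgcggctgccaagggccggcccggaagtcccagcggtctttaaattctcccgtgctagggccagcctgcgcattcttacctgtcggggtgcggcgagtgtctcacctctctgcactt
PFKFB4: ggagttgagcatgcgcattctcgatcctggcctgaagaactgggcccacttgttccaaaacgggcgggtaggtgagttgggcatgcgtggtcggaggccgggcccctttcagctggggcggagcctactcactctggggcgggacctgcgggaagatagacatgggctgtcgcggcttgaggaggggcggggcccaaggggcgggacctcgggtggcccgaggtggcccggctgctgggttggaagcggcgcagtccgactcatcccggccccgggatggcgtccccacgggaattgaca

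The motif was in 21.61% of 27305 promoters of this length and in 12 of 24 hypoxia genes measured that had a promoter. Among the called genes it was in 3 of the 5 with a promoter, and BNIP3L had no promoter sequence in the set used. A match is a description of these letters and not a site.

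The other lists with at least 5 measured genes had medians between −0.48 (bile acid and organic anion transport) and 0.17 (immediate early genes). SLCO1B3 was 1 of 11 bile acid and organic anion transport genes called lower, by −1.43 (9.09%, against 1.65% of all genes). Fatty acid oxidation and ketogenesis had a median of −0.38 with 18 of 20 negative and 0 called. Its median was 0.0003 without the 2 arrays highest in GNMT, which left empty liposomes 2 as the only high array. Drug, alcohol and steroid metabolism had a median of −0.38, with CYP2D6 and EPHX1 (1.97) called higher and UGT2B10 (−1.33), FMO5 (−1.29) and ADH4 (−1.18) called lower of 28 (7.14% and 10.71%, against 1.83% and 1.65% of all genes). Its median was 0.12, the opposite direction, without the 2 arrays highest in GNMT, again with empty liposomes 2 as the only high array. Plasma proteins had a median of −0.01 over 37, with C3 called higher by 1.76 (2.7%, near the 1.83% of all genes), where MRX34 2 at 4.95 set the gap. Hepatocyte transcription factors had a median of 0.10 over 17, with CEBPB (1.93) higher and PPARA (−1.27) lower (5.88% each, against 1.83% and 1.65% of all genes). Interferon-stimulated genes had a median of 0.06 over 20, with IFIH1 (1.49), MX1 (1.21) and IFI6 (1.12) called higher, where 1.83% of all genes were. Called members of the remaining lists included TAT (−1.01) and OAT (−1.20) of 30 amino acid catabolism genes (6.67% lower, against 1.65% of all genes). RPS14 (1.20) was 1 of 36 ribosomal proteins called higher (2.78%), and SDHB (1.22) 1 of 35 oxidative phosphorylation genes (2.86%). Both shares lay near the 1.83% of all genes. Another probe of RPS14, above background on all 9 arrays, differed by 0.18. MT1A (1.84) and HAMP were called higher of 14 acute phase and metallothionein genes (14.29%, against 1.83% of all genes). THBS1 (1.69) was higher and SNAI2 (−1.35) lower of 12 epithelial and mesenchymal genes (8.33% each, against 1.83% and 1.65% of all genes). Of 19 unfolded protein and ATF4 response genes, 1 was called higher (5.26%, against 1.83% of all genes). A share of 8.33% or 5.26% here is a single gene.

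**Figure D5:**
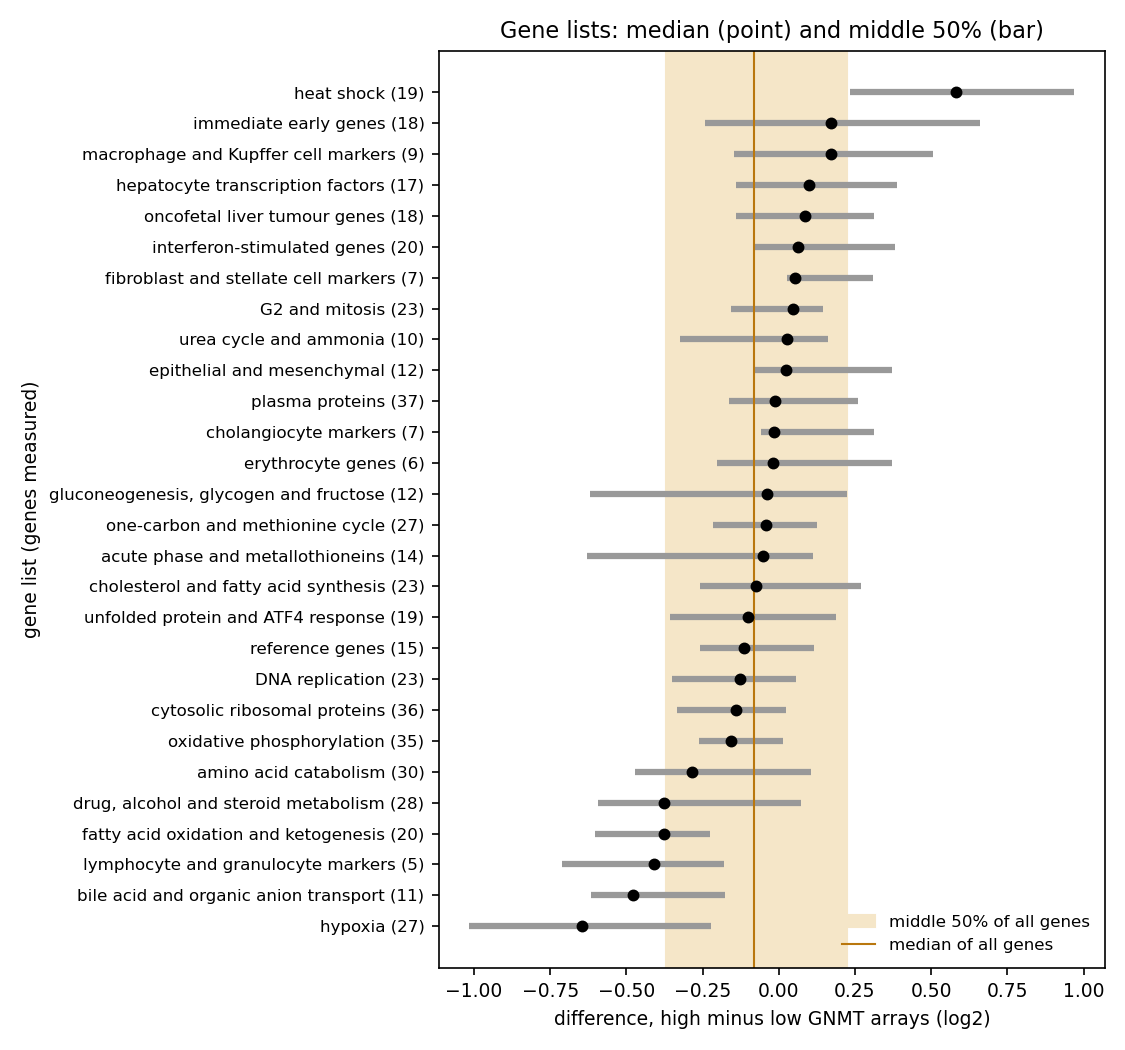
Median (point) and middle 50% (bar) of the difference between high and low GNMT arrays (log2) for each gene list with at least 5 measured genes, beside the median and middle 50% of all genes. Heat shock (median 0.58) and hypoxia (median −0.65) stand at the ends.

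Among genes listed as markers of other cell types, DCN and S100A9 were called. The host was a mouse and mouse RNA was not analysed, so Hep3B signal and host signal cannot be told apart here. The sums are therefore not readings of such cells in the tumour. Of 15 macrophage and Kupffer cell markers, 9 were measured and 0 called, with a summed intensity of 3568.5 to 4155.2 on the high arrays and 3349.7 to 3954.8 on the low arrays. Of 15 endothelial markers only PECAM1 was measured (−0.38). Of 13 fibroblast and stellate cell markers, 7 were measured, with a sum of 4455.2 to 4827.1 on the high arrays and 3495.2 to 4551.9 on the low arrays. DCN alone of these was called higher (14.29%, against 1.83% of all genes). Of 14 lymphocyte and granulocyte markers, 5 were measured, and 0 of these were above background on all 9 arrays. Their dim sum was 174.1 to 221.5 on the high arrays and 235.2 to 283.0 on the low arrays, ranges that did not overlap. On the high arrays 1 of the 5 lay wholly above the low arrays and 1 wholly below, where 1108 and 1779 of 15386 genes did. S100A9 was called lower (−1.25), 20.0% of those measured against 1.65% of all genes. Cholangiocyte markers (7 of 9 measured) and erythrocyte genes (6 of 12) had none called. Defining markers not measured include COL1A2, COL3A1, PTPRC and CD163. Their part in the results was not tested.

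MRX34 against both controls was the only test on these arrays that the ranking did not use. limma with Benjamini-Hochberg adjustment called 0 of 15387 genes (0%), with 1711 at an unadjusted p under 0.05 and a smallest adjusted p of 0.09714, which THBS1 (−1.88, a matrix glycoprotein) shared with others. Without dilution buffer 1 it called 1. The p-values measure only the spread between these samples. Of the 282 genes higher in the high set, 275 were lower in MRX34 (median −0.80) and 61 (21.63%) had an unadjusted p under 0.05. Of the 254 lower genes, 253 were higher in MRX34 (median 0.79) and 116 (45.67%) had one, against 11.12% of all genes. Since the low set holds 2 MRX34 arrays and the high set none, these counts share arrays with the ranking and are given as values only. GNMT itself was 2.22 lower in MRX34 on the log2 scale (SE 1.43, limma adjusted p = 0.56), averaging 9.87 ± 2.13 in MRX34 (n = 3) and 12.08 ± 2.61 in the 6 control arrays, and the treatments overlapped.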

How the data were processed

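Total RNA of whole Hep3B tumours, labelled with biotin, was hybridised to 9 Illumina arrays, 3 per treatment. The deposited intensity table with detection p-values held quantile normalized, not background-subtracted values (9 sorted columns within 1.657 units, from 50.3 to 47788.6), read from the values, and, per the file headers, each intensity is followed by a detection p-value in steps of 1/770. The deposited series table held background-subtracted intensity values with no scaling between arrays. Scanner software and normalization method: not given in the sources used here.

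In R 4.3.3 with limma 3.58.1, signals were background-corrected (normexp from the detection p-values, offset 16), quantile normalized and log2 transformed, and fold changes of dim probes are understated by the offset. Of 47322 probes, 43906 were named after setting aside 3270 without a symbol, 92 spike-ins and 54 date-like symbols. Probes with a detection p under 0.05 on at least 3 of 9 arrays were kept, and the brightest per gene left 15387 genes. Comparison scripts ran in Python 3.11.15 with pandas 2.3.3.

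The arrays were selected by GNMT intensity, so the high against low comparison has no test. MRX34 against the mean of both controls was fitted with limma. Members and gene lists were chosen with earlier results of these data known. Genes were named from those a rule allowed: GNMT, OTC, AFP, GPC3 and ALB, the 15 largest higher and 12 largest lower called genes with placeholders passed over, up to 3 members per list in each direction, the 8 most and 4 least correlated with GNMT, and any one-carbon and urea cycle members, of which a selection is given; others are said to be chosen after their values were seen. A gene that the rule names is not reported here. limma was tested on simulated data.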

Additional observations from a re-analysis of the deposited data

Results flagged for a closer look

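CIDEC, a lipid droplet protein, stood out among the 6 control arrays: empty liposomes 1, at 5.75 on the log2 scale, lay apart from the others, with a gap to the nearest of 0.6424 of the whole range. Of 31 genes put to this rule 1 was flagged, and chance flags about 1 in 20 groups. CIDEC differed by −2.05 between the high and low GNMT arrays on this probe and by −0.25 on another.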

How the results depend on the processing

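The OTC difference stayed positive under every alternative run on it, from 2.78 to 5.14 on the log2 scale, moving beyond the spread only within dilution buffer (5.14). Counts of genes higher (282) were 153 with no background correction, 87 on the unscaled series table, 67 at 2 log2 units, 121 with 4 against 4 arrays, 467 among control arrays only, 726 within dilution buffer and 169 without both of the highest GNMT arrays (added after seeing the data), and 257 to 611 leaving out 1 array. Counts lower (254) were 46 with no background correction, 79 with an offset of 50, 720 on the scaled and 2507 on the unscaled series table, 54 above background on all 9 arrays, 8 at 2 log2 units, 158 ranked by OTC, 54 with 4 against 4 arrays, 387 among control arrays only, 587 within dilution buffer, 99 adjusted for treatment, 118 without both of the highest GNMT arrays, 104 adjusted for brightness (added after seeing the data), and 163 to 956 leaving out 1 array. The cause was not tested. Among the list medians under alternatives, 441 moved within the spread, 129 moved beyond it and 16 reversed: macrophage markers −0.065 and −0.73 on the scaled and unscaled series tables, −0.0527 within dilution buffer, −0.0452 adjusted for brightness and −0.0295 to 0.2424 leaving out 1 array; heat shock −0.32 and immediate early genes −0.46 on the unscaled table; cholesterol synthesis 0.002 among controls, 0.0649 without both highest arrays, and −0.1754 to 0.0303 leaving out 1 array; amino acid catabolism 0.0384, drug metabolism 0.12 and fatty acid oxidation 0.0003 without both highest arrays; the unfolded protein response 0.0375 adjusted for brightness. MRX34 against controls called 2 with no background correction, 2 above background on all 9 arrays and 0 to 1 leaving out 1 array. The numbers share replicate labels, so the replicate block was fitted: it called 0, with 1928 at an unadjusted p under 0.05. Same-numbered MRX34 and empty liposome arrays correlated at 0.44, 0.49 and 0.28 in their deviations from the group means. Those of MRX34 and dilution buffer correlated at −0.06, 0.14 and −0.15, and those of empty liposomes and dilution buffer at −0.19, 0.30 and −0.32. With 3 arrays per group, and GNMT and brightness varying within groups, these values can neither show nor exclude pairing by number.

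Signal over background limits the lower calls, and 3 arrays per set limit the precision of all of them.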
